A study of Homo sapiens with 4 samples.

Results

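Of the 47432 genes in the expression table of T24 bladder cancer cells, 55 encode collagen chains or the enzymes that hydroxylate and cross-link them. They were chosen by name: 44 collagen alpha chains (COL followed by a type number, A and a chain number), the 3 catalytic subunits of prolyl 4-hydroxylase (P4HA1, P4HA2 and P4HA3), the 3 lysyl hydroxylases (PLOD1, PLOD2 and PLOD3), and lysyl oxidase with its relatives (LOX and LOXL1 to LOXL4). RNA sequencing compared 2 libraries of T24 cells given 20 μM isorhapontigenin (ISO), a stilbene related to resveratrol, for 24 h with 2 libraries of control T24 cells. The labels call the controls untreated, whereas the study's methods give them the vehicle DMSO. T24 is an established line from a human urinary bladder carcinoma, and both groups are the same line in bulk culture. Whether replicate libraries stem from independent cultures is not stated in the sources used here, and every p-value below measures the spread between libraries, which may be technical.

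Collagen chains are wound in threes into a triple helix inside the endoplasmic reticulum. Prolyl 4-hydroxylases and lysyl hydroxylases modify the chains before they fold, using oxygen, iron, ascorbate and 2-oxoglutarate; hydroxyproline stabilises the helix and hydroxylysine serves in glycosylation and cross-linking. Outside the cell, lysyl oxidases, which carry copper, oxidise lysine and hydroxylysine so that collagen molecules become covalently joined. In bladder tissue most interstitial collagen comes from stromal fibroblasts, whereas epithelial cells contribute mainly to the basement membrane and its anchoring structures.

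Levels are RPKM (mapped reads normalised for exon length and library depth) divided by a scaling factor per library, the trimmed mean of M values (TMM), and they were compared with limma on log2(RPKM + 0.1). A gene was tested where its mean over the 4 libraries reached 0.1 RPKM, and it was called where the p-value, adjusted by Benjamini-Hochberg over all 15307 tested genes, was under 0.05. A log2 fold change is ISO minus control. The table itself holds no read counts, but multiplying RPKM by exon length gave whole reads, within 0.05 of a read, for 98.8% of the detected genes in each library, and the reads on genes came to 39028228 and 32349827 in the ISO libraries and 42879427 and 40396212 in the control libraries. On 1 kb of exon, 3 reads were worth 0.0735 and 0.0885 RPKM in the ISO libraries and 0.0670 and 0.0709 RPKM in the control libraries. Of 12 markers of the labelled bladder epithelium 7 were tested (KRT7, KRT8, KRT18, KRT19, GATA3, EPCAM and UPK2), and CDH1, KRT5, TP63, UPK1B and UPK3A were each under a mean of 0.1 RPKM. KRT7 stood highest at 306 and 302 RPKM in ISO cells and 381 and 376 RPKM in control cells. Of 10 fibroblast markers FBLN1 was expressed, with 19.2 and 19.7 RPKM in ISO cells and 18.7 and 17.9 RPKM in control cells, PDGFRB was under 1 RPKM and the other 8 were under a mean of 0.1 RPKM, DCN and LUM at 0 throughout.

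All 11 modifying enzymes and 19 of the 44 chains were tested. ISO treatment lowered 5 enzymes (LOX, P4HA1, PLOD2, PLOD3 and LOXL2) and raised none (0 also at an unadjusted p under 0.05 from limma and with limma-voom), while it lowered 4 chains (COL13A1, COL6A1, COL4A6 and COL6A2) and raised 1 (COL8A1). Among all tested genes 6.07% were called lower and 4.19% higher in ISO. Of the tested enzymes 45.5% were called lower and 0% higher, and of the tested chains 21.1% and 5.26%. Calls were more frequent among better expressed genes: with a filter at a mean of 1 RPKM, 1233 of 10731 genes were lower. There 6 of 7 enzymes and 4 of 14 chains were lower. The median log2 fold change was -0.22 over the 11 enzymes and -0.10 over the 19 chains, where that of all tested genes was -0.00, and whether the enzymes and the chains differed was not tested. Both ISO libraries lay below both control libraries for 7 of 11 enzymes and 9 of 19 chains, and above them for 2 enzymes and 2 chains, where 29.1% of all tested genes lay below and 28.3% above. In bulk RNA, a lower level in every cell and fewer cells with a high level cannot be told apart.

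The scaling mattered for the split of calls. Of the genes called after TMM scaling 40.9% were higher in ISO, and of those called on the deposited RPKM 69.3% were; without the factors the median log2 fold change of all genes was 0.06. On the deposited values the enzymes kept all 5 lower calls, whereas 2 chains were called lower and 2 higher, beside 4.12% of all tested genes lower and 9.3% higher. With limma-voom on the recovered reads 6 enzymes and 6 chains were lower and 2 chains higher, beside 10.4% of all tested genes lower and 7.82% higher. When all 24052 genes above 0 in any library were tested, calls became few throughout, with 171 genes lower and 62 higher. LOX was then the single member called. Summed over the members, the 11 enzymes amounted to 252 and 247 RPKM in ISO cells and 309 and 295 RPKM in control cells, and the 44 chains to 518 and 562 RPKM in ISO cells and 641 and 603 RPKM in control cells.

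**Figure D1:**
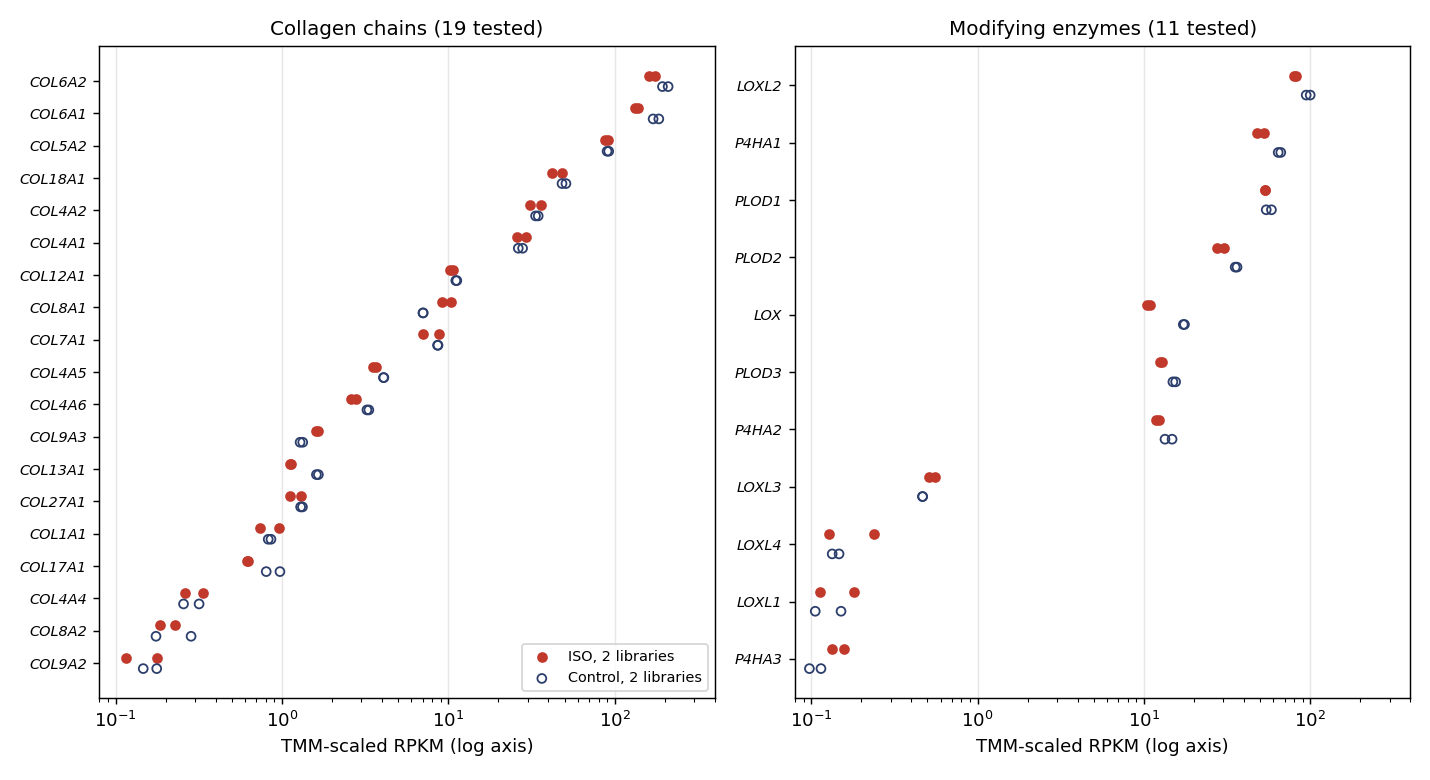
Level of each tested collagen chain and modifying enzyme in each library, as TMM-scaled RPKM on a log axis. Filled points are the 2 ISO libraries and open points the 2 control libraries. COL6A2 and COL6A1 head the chains and LOXL2 the enzymes, and 7 of the 11 enzymes but 9 of the 44 chains average at least 5 RPKM.

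Among the hydroxylases, the prolyl 4-hydroxylase subunit P4HA1 (chr10:73007217-73096974, minus strand, GRCh38) showed the greatest fall. It had 52.4 and 47.5 RPKM in ISO cells, against 66.4 and 64.1 RPKM in control cells, so the groups stood clearly apart. The difference of means was -23.5% (log2 fold change -0.39 ± 0.05 SE, adjusted p = 0.0107 from limma, n = 2 each). P4HA2, the second catalytic subunit, had 12.2 and 11.8 RPKM in ISO cells, against 14.8 and 13.4 RPKM in control cells. Both of its ISO libraries were the lower ones, but the difference (-0.22, 95% interval -0.36 to -0.09) did not pass the threshold at adjusted p = 0.0546. It passed with a filter at a mean of 1 RPKM (0.0182), with a block for the replicate letters (0.0455) and with limma-voom (0.00286). It did not pass on the deposited RPKM (0.0906), with median-of-ratios scaling, with other pseudocounts or without a filter. With 1 library left out at a time, the log2 fold change of P4HA2 stayed negative, from -0.29 without control b to -0.15 without control a. P4HA3 was barely detected, at 0.133 and 0.159 RPKM in ISO cells and 0.0976 and 0.114 RPKM in control cells, from 22 and 22 reads in ISO cells and 17 and 19 reads in control cells (adjusted p = 0.572). The subunit that dominated these cells was thus P4HA1, at 4.28 and 4.02 times the level of P4HA2 in the ISO libraries and 4.50 and 4.79 times in the control libraries.

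Of the lysyl hydroxylases, PLOD2, which hydroxylates lysines of the collagen telopeptides, and PLOD3, which also carries glycosyltransferase activity, both fell. PLOD2 (chr3:146035139-146163725, minus strand) had 30.1 and 27.3 RPKM in ISO cells, against 35.3 and 36.3 RPKM in control cells (-0.32 ± 0.05, adjusted p = 0.0171). PLOD3 (chr7:101205977-101218420, minus strand) had 12.5 and 12.8 RPKM in ISO cells, against 15.5 and 14.9 RPKM in control cells (-0.27 ± 0.04, adjusted p = 0.0134). For both genes the 2 groups were separate, and the call of PLOD3 ended when ISO a was left out (adjusted p = 0.0608). PLOD1, the enzyme that acts on the helical part of collagen and the most abundant of the 3, did not pass the test: it had 53.6 and 53.4 RPKM in ISO cells, against 58.4 and 54.3 RPKM in control cells, with an interval of -0.18 to 0.03 around a log2 fold change of -0.07. The ratio of PLOD2 to PLOD1 was 0.562 and 0.512 in ISO cells and 0.605 and 0.668 in control cells.

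LOX, the founding lysyl oxidase, changed most among the 30 tested members. On chr5:122063195-122078413 (minus strand), it had 10.9 and 10.5 RPKM in ISO cells, against 17.5 and 17.2 RPKM in control cells, that is 10.7 ± 0.28 against 17.4 ± 0.20 (SD, n = 2 each). The libraries of a group lay close together and far from the other group, and the difference of means was -38.5% (log2 fold change -0.70 ± 0.04, interval -0.79 to -0.60, adjusted p = 0.000646). No library decided the call, since leaving out any of the 4 gave an adjusted p between 0.000808 and 0.00696. LOXL2 (chr8:23296897-23425328, minus strand), an oxidase known for cross-linking type IV collagen, was the most abundant enzyme, with 79.3 and 82.2 RPKM in ISO cells and 99.8 and 94.4 RPKM in control cells (-0.27 ± 0.04, adjusted p = 0.0149). Its groups did not overlap either, but its call ended without ISO a (adjusted p = 0.0655). LOX was 0.137 and 0.128 times as abundant as LOXL2 in ISO cells and 0.175 and 0.183 times in control cells.

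The other LOX-like genes were low and not called. LOXL3 had 0.554 and 0.509 RPKM in ISO cells, against 0.466 and 0.468 RPKM in control cells (adjusted p = 0.501). LOXL4 had 0.127 and 0.240 RPKM in ISO cells and 0.134 and 0.147 RPKM in control cells, and LOXL1 had 0.113 and 0.182 RPKM in ISO cells and 0.151 and 0.106 RPKM in control cells. Both rested on between 16 and 30 reads a library and their groups overlapped. The family thus had 2 members above 5 RPKM, both lower in ISO, and 3 under 1 RPKM whose differences could not be resolved at this depth. Strand was not stated for the counting, and some exons are shared: LOX overlaps SRFBP1 over 138 of its 5596 exon bases, PLOD3 overlaps ZNHIT1 over 102 of 5671, LOXL2 overlaps ENTPD4 over 120 of 5985 on its own strand, and LOXL3 overlaps HTRA2 over 936 of 4519. LOXL1 overlaps LOXL1-AS1 (mean 0.814 RPKM) over 335 of 3637 bases and P4HA3 overlaps PPME1 (mean 12.7 RPKM) over 166 of 3990, both partners being above the member itself. The partners of LOXL3 were likewise above it, HTRA2 at a mean of 9.52 RPKM and DOK1, which shares 216 bases, at 7.13 RPKM.

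**Figure D2:**
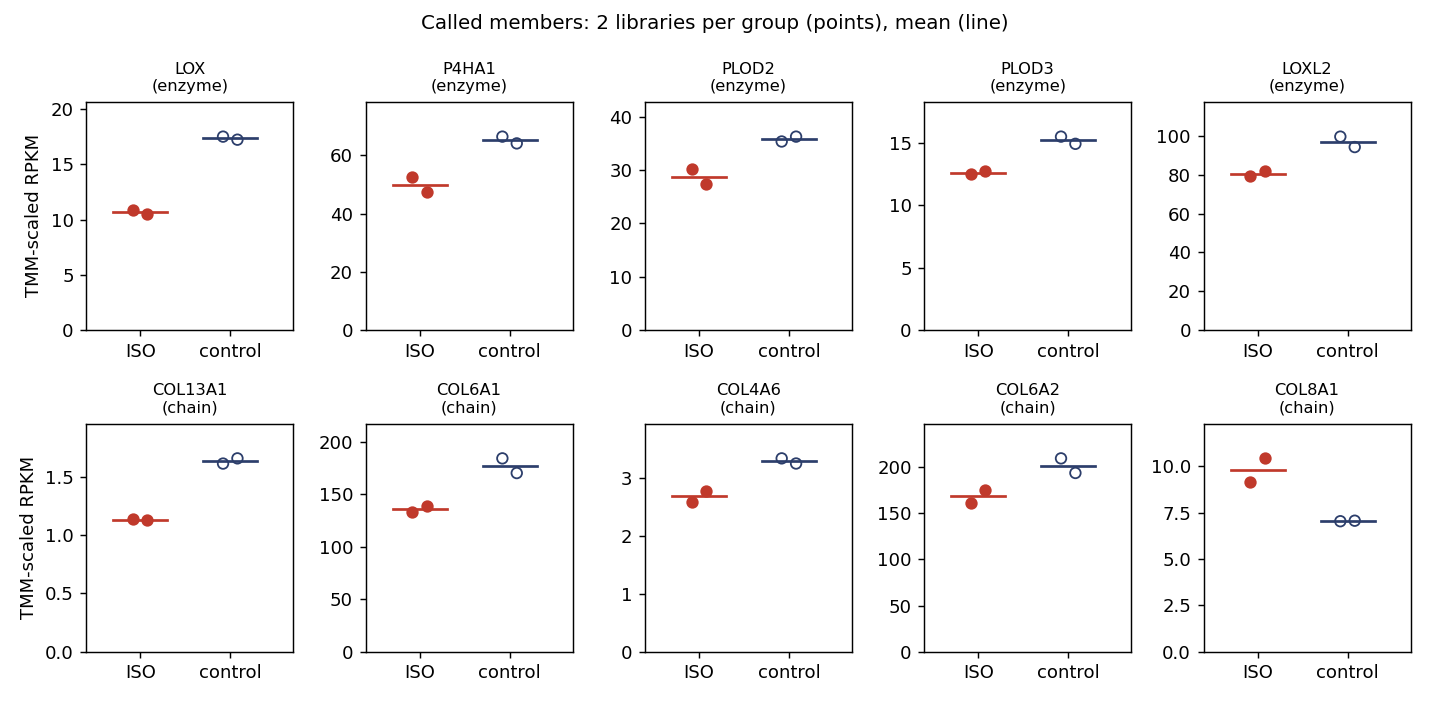
TMM-scaled RPKM of the 10 called members in each library (points) with the group mean (line), ISO left of control, each axis from 0. The ISO and control points do not overlap in any panel; COL8A1 is the single member in which the ISO libraries are the higher ones.

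LOX, P4HA1 and PLOD2, the 3 enzymes with the greatest falls, are shown with the 250 bases that precede their RefSeq start (GRCh38.p14, all on the minus strand, written 5′ to 3′). Several collagen-modifying enzymes are known as targets of hypoxia-inducible factors, whose binding sequence has the core ACGTG or GCGTG. Capitals mark these letters on either strand (CACGT and CACGC when read from the other one), a description of the sequence and not of binding. The windows are chr5:122078260-122078509 for LOX (the one of 3 RefSeq starts nearest the annotated 5′ end), chr10:73096867-73097116 for P4HA1 and chr3:146161185-146161434 for PLOD2.
LOX: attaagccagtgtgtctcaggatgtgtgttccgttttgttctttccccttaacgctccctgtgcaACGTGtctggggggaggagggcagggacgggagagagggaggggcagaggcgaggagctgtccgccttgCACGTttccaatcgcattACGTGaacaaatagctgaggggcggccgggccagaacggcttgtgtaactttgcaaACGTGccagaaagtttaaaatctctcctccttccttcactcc
P4HA1: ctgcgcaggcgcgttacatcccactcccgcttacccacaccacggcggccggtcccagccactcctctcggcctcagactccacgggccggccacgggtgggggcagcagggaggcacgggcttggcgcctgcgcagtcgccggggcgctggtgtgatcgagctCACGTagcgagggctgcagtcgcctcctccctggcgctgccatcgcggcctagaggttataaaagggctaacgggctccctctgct
PLOD2: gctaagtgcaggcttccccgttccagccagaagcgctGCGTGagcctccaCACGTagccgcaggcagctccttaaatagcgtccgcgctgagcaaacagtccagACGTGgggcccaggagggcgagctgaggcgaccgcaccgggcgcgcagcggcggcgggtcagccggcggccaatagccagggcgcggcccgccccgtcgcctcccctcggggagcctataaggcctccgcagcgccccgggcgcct

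ACGTG occurred 4 times in the LOX window, 2 times in that of PLOD2 (beside 1 GCGTG) and 1 time in that of P4HA1. Over all 35116 promoter windows of this length in the RefSeq table, 43.2% held at least 1 of the 2 cores, 7.76% held 3 or more and 3.22% held 4 or more. Of the 30 tested members 23 had a window in the table, and 9 of these 23 held a core. Among the members called lower it was 4 of 7 (COL13A1 held 1 GCGTG, while PLOD3, COL6A2 and COL4A6 held neither core), and among those not called 5 of 16, PLOD1 with 2 GCGTG included.

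Collagen chains were dominated by type VI, the microfibrillar collagen that forms beaded filaments around cells, and both of its expressed chains fell. COL6A1 (chr21:45981770-46005050, plus strand) had 133 and 139 RPKM in ISO cells, against 184 and 170 RPKM in control cells, that is 136 ± 4.09 against 177 ± 9.89 (SD, n = 2 each). Its log2 fold change was -0.38 ± 0.05 (adjusted p = 0.00878), and the call held without any one library (adjusted p 0.00575 to 0.0456). COL6A2 (chr21:46098112-46132848, plus strand), the most abundant chain, had 161 and 176 RPKM in ISO cells, against 210 and 194 RPKM in control cells (-0.26 ± 0.06, adjusted p = 0.0414). The libraries did not overlap, but this call ended on the deposited, unscaled RPKM (adjusted p = 0.0703) and without control a (0.129), ISO a (0.135) or ISO b (0.0554). The 2 genes are neighbours, 93061 bases apart in the same orientation, and the ratio of COL6A1 to COL6A2 was 0.826 and 0.789 in ISO cells and 0.879 and 0.879 in control cells. COL6A3, the large remaining chain of the classic type VI molecule, was close to the detection limit with 14 and 18 reads in ISO cells and 15 and 16 reads in control cells.

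COL8A1, a short chain of the network-forming type VIII collagen found in vessel walls and Descemet's membrane, was the one member that rose. It lies at chr3:99638475-99799226 (plus strand) and had 9.17 and 10.4 RPKM in ISO cells, against 7.04 and 7.07 RPKM in control cells. Both ISO libraries exceeded both control libraries, by 38.9% in the means (0.47 ± 0.07, interval 0.31 to 0.62, adjusted p = 0.0115), and leaving out a library gave adjusted p 0.0134 to 0.0312. Its partner COL8A2 was near 0.2 RPKM with overlapping groups.

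COL13A1, a transmembrane collagen of cell adhesion sites, had the greatest fall among the chains. At chr10:69801880-69964275 (plus strand), it had 1.13 and 1.12 RPKM in ISO cells, against 1.61 and 1.66 RPKM in control cells (-0.50 ± 0.08, -30.9%, adjusted p = 0.0144). The call ended without control b (adjusted p = 0.0594), ISO a (0.0608) or ISO b (0.0628), although the groups stayed apart. COL17A1, the transmembrane collagen of hemidesmosomes, had 0.617 and 0.629 RPKM in ISO cells and 0.973 and 0.805 RPKM in control cells. This difference was not called (-0.45, adjusted p = 0.0735), nor on the deposited RPKM (0.0881), but limma-voom called it lower (0.0121).

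The type IV chains of the basement membrane were divided. COL4A1 and COL4A2, the ubiquitous pair that share a head-to-head locus on chromosome 13, were not called. COL4A1 had 25.8 and 29.2 RPKM in ISO cells, against 28.0 and 26.3 RPKM in control cells (0.02, interval -0.14 to 0.17). COL4A2 had 31.0 and 35.8 RPKM in ISO cells, against 34.7 and 33.5 RPKM in control cells (-0.03, interval -0.20 to 0.13; 0.03 on the deposited RPKM). In both genes the ISO libraries lay on either side of the control libraries, and the ratio of the pair was 0.833 and 0.814 in ISO cells and 0.806 and 0.787 in control cells. COL4A6 (chrX:108155607-108439497, minus strand), by contrast, was called lower, with 2.59 and 2.77 RPKM in ISO cells and 3.33 and 3.24 RPKM in control cells (-0.28 ± 0.06, adjusted p = 0.0371). This call ended on the deposited RPKM (adjusted p = 0.0662) and when any library was left out (adjusted p 0.0738 to 0.137). COL4A5, which faces COL4A6 across 340 bases on the X chromosome, had 3.52 and 3.70 RPKM in ISO cells and 4.07 and 4.10 RPKM in control cells. It was not called (-0.18, interval -0.30 to -0.05, adjusted p = 0.0889), nor on the deposited RPKM (0.210), but limma-voom called it lower (0.0150).

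**Figure D3:**
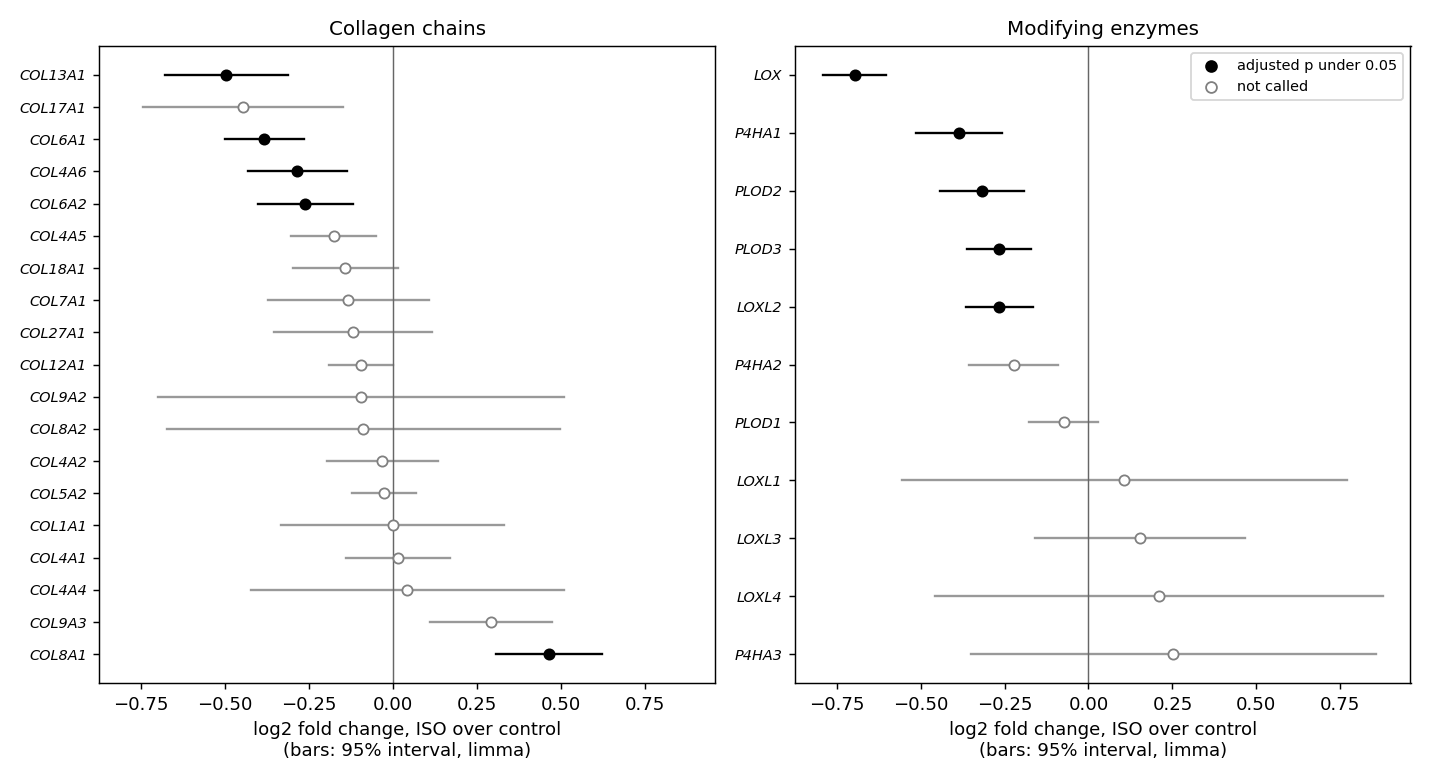
Log2 fold change (ISO over control) of the 19 tested chains and 11 tested enzymes, with 95% intervals from limma. Filled points have an adjusted p under 0.05. LOX at -0.70 and COL8A1 at 0.47 are the extremes, and the intervals of genes under 0.3 RPKM, such as COL9A2 and LOXL4, span both directions.

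Of the fibrillar collagens, COL5A2 alone was abundant. It had 87.1 and 91.8 RPKM in ISO cells, against 92.1 and 90.0 RPKM in control cells, and the interval of its log2 fold change ran from -0.12 to 0.07 (-0.03 after scaling and 0.03 without). No read was recovered for its usual partner COL5A1, nor for COL1A2, COL2A1, COL3A1 and COL11A1, in any library, where 3 reads would have given COL5A1 between 0.00616 and 0.00773 RPKM. COL1A1 had 0.735 and 0.964 RPKM in ISO cells and 0.859 and 0.827 RPKM in control cells (adjusted p = 0.998). Of the major stromal fibril chains, COL1A2 and COL3A1 were thus at 0 in both groups.

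COL18A1, the basement membrane multiplexin whose end fragment is endostatin, had 42.2 and 47.9 RPKM in ISO cells, against 50.9 and 48.3 RPKM in control cells. The groups did not overlap, but the difference of -0.14 (interval -0.30 to 0.01) was not called, and 1563 of the 8464 exon bases of COL18A1 are shared with SLC19A1 on the other strand. COL12A1, a collagen that lies on fibril surfaces, had 10.3 and 10.6 RPKM in ISO cells and 11.1 and 11.3 RPKM in control cells (-0.10, adjusted p = 0.180). COL7A1, the anchoring fibril collagen, had 7.04 and 8.82 RPKM in ISO cells and 8.62 and 8.68 RPKM in control cells. Here the ISO libraries disagreed: the log2 fold change was -0.13 with all 4 libraries, -0.29 without ISO b (adjusted p = 0.0493) and 0.03 without ISO a. COL9A3 shares 155 exon bases with the more abundant TCFL5 (mean 7.585 RPKM) on the other strand. It had 1.66 and 1.60 RPKM in ISO cells and 1.33 and 1.29 RPKM in control cells, and lay near the threshold (adjusted p = 0.0612). It passed on the deposited RPKM (0.0331), with the filter at a mean of 1 RPKM and with limma-voom (0.0413 each).

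The spread among ISO libraries was uneven over the chains. ISO b exceeded ISO a in 16 of the 19 tested chains and 5 of the 11 enzymes, where it did so in 48.7% of all tested genes, and control b exceeded control a in 6 of the 19 chains and 4 of the 11 enzymes, against 48.3% of all genes. The median log2 fold change of the chains was accordingly -0.02 without ISO a and -0.19 without ISO b. That of the enzymes was -0.24 without ISO a and -0.20 without ISO b. Without control a the medians were -0.10 for the chains and -0.15 for the enzymes, and without control b -0.13 and -0.29. Fewer chains were called lower whichever library was left out, and fewer enzymes without ISO a. Calls over all tested genes became fewer as well. The 25 untested chains held few reads: 8 had none in any library, and the other 17 had at most 19 in a library, as in COL16A1 with 13 and 12 reads in ISO cells and 7 and 19 reads in control cells.

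Genes of the other steps of collagen biosynthesis were taken from lists. Of 17 tested genes for collagen folding and export, 3 were called higher and none lower, beside 4.19% and 6.07% of all tested genes, with a median log2 fold change of 0.10. At an unadjusted p under 0.05 limma gave 6 higher and 0 lower, where 4190 of all 15307 tested genes reached it in either direction. With limma-voom 5 were called higher and 0 lower, beside 7.82% and 10.4% of all tested genes. P3H2, a prolyl 3-hydroxylase that acts largely on type IV collagen, had 11.7 and 12.0 RPKM in ISO cells, against 8.59 and 9.09 RPKM in control cells (0.42 ± 0.04, adjusted p = 0.00509). CRTAP, a partner of prolyl 3-hydroxylase 1, had 40.5 and 39.9 RPKM in ISO cells, against 36.1 and 34.99 RPKM in control cells (adjusted p = 0.0284). KLHL12, a ubiquitin ligase adaptor for large transport vesicles, had 12.5 and 13.0 RPKM in ISO cells, against 11.4 and 11.2 RPKM in control cells (adjusted p = 0.0485). Only the call of P3H2 among these 3 held when a library was left out (adjusted p up to 0.0323), while that of CRTAP ended without any 1 of the 4 libraries (0.060 to 0.119), as did that of KLHL12 (0.087 to 0.169). The enzymes that hydroxylate proline thus moved in both directions, P4HA1 lower and P3H2 higher in ISO.

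Of 8 tested genes for the removal of collagen propeptides, none was called by limma, and their median was -0.10. An unadjusted p under 0.05 from limma was reached by 2, both lower, where 4190 of all 15307 tested genes reached it in either direction. With limma-voom 1 was called lower, beside 10.4% of all tested genes. Of 7 tested collagen receptors 1 was lower and 2 were higher with limma-voom, beside 10.4% and 7.82% of all tested genes. The counts were the same at an unadjusted p under 0.05 from limma. In the main fit only ITGB1, the beta subunit of all collagen-binding integrins, was called, where 10.3% of all tested genes were called in either direction. ITGB1 had 81.4 and 78.5 RPKM in ISO cells, against 92.4 and 92.8 RPKM in control cells (-0.21 ± 0.03, adjusted p = 0.0176). That call held without ISO a (0.0445), but not without control a (0.0562), without control b (0.0608) or without ISO b (0.0720). Markers of cell types also moved. Of the 7 tested epithelial markers 3 were called lower and 1 higher by limma, beside 6.07% and 4.19% of all tested genes. KRT7 (-0.32, adjusted p = 0.00664), KRT18 (-0.27, 0.0118) and KRT19 (-0.38, 0.0104) fell by about as much as the called hydroxylases, and GATA3 rose (0.50, 0.0161). KRT8 (-0.13, 0.0695), UPK2 (-0.12, 0.736) and EPCAM (-0.01, 0.961) were not called. Without ISO b the calls of KRT18 and GATA3 ended. The 12 epithelial markers summed to 725 and 709 RPKM in ISO cells and 874 and 856 RPKM in control cells. The 10 fibroblast markers, mostly FBLN1, summed to 19.9 and 20.4 RPKM in ISO cells and 19.1 and 18.4 RPKM in control cells, and 4 of them were at 0 throughout, while PDGFRB rose (0.611 and 0.709 RPKM in ISO cells, against 0.379 and 0.401 RPKM in control cells, adjusted p = 0.0377, and 0.0842 to 0.157 with any 1 library left out). The 6 endothelial markers summed to 14.0 and 14.3 RPKM in ISO cells and 18.3 and 18.1 RPKM in control cells, nearly all from CDH5, which fell (adjusted p = 0.0040), and the 6 leukocyte markers to 3.04 and 3.60 RPKM in ISO cells and 3.13 and 3.04 RPKM in control cells, with PTPRC at 0. Their part in the collagen values was not tested.

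**Figure D4:**
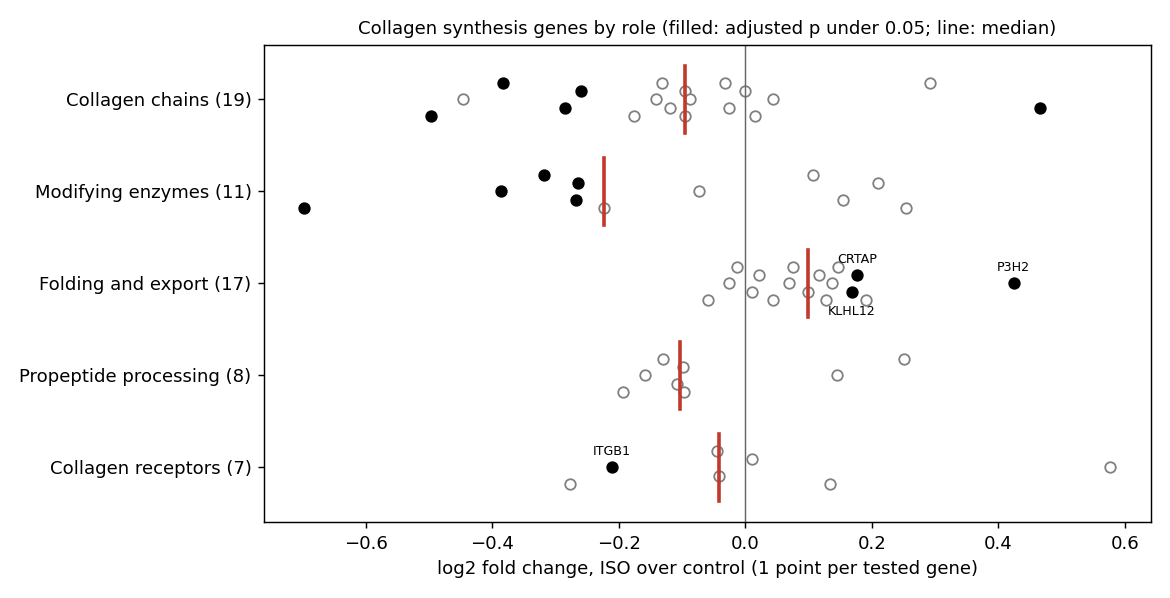
Log2 fold change (ISO over control) of each tested gene by step of collagen synthesis, filled where the adjusted p was under 0.05, with the median of each list as a line. The medians are -0.10 for the 19 chains, -0.22 for the 11 modifying enzymes, 0.10 for the 17 folding and export genes, -0.10 for the 8 propeptide processing genes and -0.04 for the 7 receptors.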

How the data were processed

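Total RNA was extracted with TRI-zol, libraries were made with an Illumina TruSeq kit and sequenced as paired ends. The authors trimmed and aligned the reads to hg38 in the Biomedical Genomics Workbench (Qiagen), and summed exonic reads by gene, and the deposited values are RPKM; the annotation they counted with is not given in the sources used here. The deposited RPKM were not TMM-scaled, and the authors' group means in the same table were not used.

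TMM factors were computed on the RPKM (trimming 30% of log ratios and 5% of levels), giving 1.02 and 1.03 for the ISO libraries and 0.975 and 0.983 for the control libraries. limma 3.58.1 (R 4.3.3) was fitted with a variance trend to log2(scaled RPKM + 0.1) of the 15307 genes averaging at least 0.1 RPKM, with Benjamini-Hochberg adjustment at 0.05; the pseudocount understates the fold change of low genes. It was checked on simulated data. Gene positions, exon lengths and overlaps came from GENCODE release 44 (GRCh38), and promoters from RefSeq. Protein sequences were not used here.

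The members, gene lists and tests were chosen with earlier results of these data known. The text names tested members by class and gives all 4 libraries for called members, tested enzymes and chains averaging at least 5 RPKM; of the listed pathway genes it names called ones, by smallest p. Other members given with values were chosen after those were seen. Results were recomputed under 12 other settings, and under 1 more chosen after seeing the data.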

Additional observations from a re-analysis of the deposited data

How the results depend on the processing

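All 10 called members kept their direction under all 13 alternatives, and they kept their calls under median-of-ratios factors, pseudocounts of 1 and 0.01, a filter at a mean of 1 RPKM and limma-voom on the recovered reads. Without a filter 24052 genes were tested and the counts fell to 0 chains lower and 0 higher, 1 enzyme lower (LOX) and, over all genes, 171 lower and 62 higher. Without scaling 2 chains were lower and 2 higher, and over all genes 630 were lower and 1424 higher; COL5A2 then had 0.0349, COL4A2 0.0297 and COL1A1 0.0544. COL1A1 also turned to 0.0019 with median-of-ratios factors and 0.0022 with a pseudocount of 1. With a mean of at least 1 RPKM, 6 of 7 tested enzymes and 4 of 14 tested chains were lower, and 2 chains were higher. Over all 10731 genes then tested, 1233 were lower and 967 higher. With limma-voom 2 chains were higher, and over all genes 1570 were lower and 1177 higher.

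The a-minus-b differences of the 2 groups showed no positive correlation (r = -0.13 over 6209 genes). This cannot tell whether libraries of the same letter were prepared together, which the sources used here do not state. With the replicate block 2 chains were lower (COL4A6 and COL6A2 not called), 6 enzymes were lower, and over all genes 739 were lower and 495 higher. Crossing the letters, an alternative chosen after seeing the data, left 4 chains lower, 1 chain higher, 5 enzymes lower and, over all genes, 947 lower and 702 higher.

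Leaving out 1 library at a time gave 1 to 2 chains lower, 1 to 1 higher, 3 to 6 enzymes lower and 0 to 0 higher, and 398 to 548 lower and 161 to 406 higher over all genes. The log2 fold changes then ran from -0.33 to 0.15 for COL8A2, -0.28 to 0.0848 for COL9A2, -0.0646 to 0.0112 for COL5A2, -0.0884 to 0.18 for COL4A4, -0.29 to 0.0290 for COL7A1, -0.0806 to 0.50 for LOXL4, -0.0726 to 0.10 for COL4A1, -0.14 to 0.0728 for COL4A2, -0.10 to 0.31 for LOXL1 and -0.18 to 0.17 for COL1A1; of these only COL7A1 was called, without ISO b. Causes of these shifts were not tested. The 6 members under 0.3 RPKM (COL4A4, COL8A2, COL9A2, LOXL1, LOXL4 and P4HA3) had intervals that spanned both directions.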
